A study of Danio rerio with 6 samples.

Results

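Genes that control or build cartilage and bone in zebrafish were examined in RNA-Seq of whole larvae after embryonic alcohol exposure (EAE), 10 in all: sox9a, sox9b, runx2a, runx2b, sp7, acana, matn1, dlx3b, barx1 and spp1. They were chosen by name as skeletal regulators and matrix genes, with earlier results of these data known. All 10 were present among the 30713 named genes of the count table. EAE larvae (n = 3 pools) were kept in 1% EtOH from 12 hours post fertilization (hpf) to 5 days post fertilization (dpf), and control larvae (n = 3 pools) received 0% EtOH over the same time. Every pool was wild-type AB, a common laboratory strain, spent 5 to 7 dpf in system water without EtOH and with paramecia as food (artemia is also listed in the husbandry notes), and was collected at 7 dpf. A pool held 30 homogenized whole larvae of mixed sizes, so skeletal cells were measured together with all other tissues. In such bulk samples a different number of skeletal cells and a different amount of RNA per cell cannot be told apart. The question here was whether transcripts of these skeletal genes differed between EAE and control larvae.

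The cartilage of the zebrafish larval head is laid down by cranial neural crest cells that settle in the pharyngeal arches. Arch transcription factors, among them the Dlx and Barx families, give these cells a position and decide where cartilage or joint forms. Sox9 then starts the chondrocyte program and drives matrix genes such as collagen II, aggrecan and matrilin, whereas Runx2 and, after it, Sp7 (osterix) drive osteoblasts, the cells that make bone. Zebrafish carry a pair of copies, a and b, of sox9 and of runx2. Craniofacial structure is among the features altered by prenatal alcohol exposure in people and in animal models.

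Of the 10 genes, dlx3b was the single one that rose in EAE larvae, to 1.23 times the control level, and none fell. Counts of each gene were compared with edgeR's quasi-likelihood test, with p-values adjusted by the Benjamini-Hochberg method over all 21617 genes that passed a filter on low counts. A gene was called different when the adjusted p was under 0.05. Of the 10 genes 9 passed the filter, and the 1 call among them (11.1%) stood beside 14.2% of all tested genes called in either direction, 7.22% higher and 6.95% lower in EAE. The pools of the groups did not overlap for 2 of the 9 genes (22.2%), dlx3b and acana, beside 32.0% of all tested genes. At an unadjusted p under 0.05, 3 were higher (dlx3b, barx1 and acana) and 1 was lower (spp1), beside 28.8% of all tested genes in either direction. DESeq2 and limma-voom likewise called 1 of them higher and 0 lower. The count of skeletal genes called was thus near that of genes at large.

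The changes of the 9 tested genes were small. Their log2 fold changes ran from -0.23 to 0.41 with a median of 0.07, 5 of them positive and 4 negative, and the median over all tested genes was 0.00077. For 7 of the 9 the 95% interval of the fold change lay within 1.5-fold in either direction. The exceptions were sp7, whose interval reached down to 0.663, and barx1, whose interval reached up to 1.67. Larger changes of these last genes are therefore within the error of the data.

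**Figure D1:**
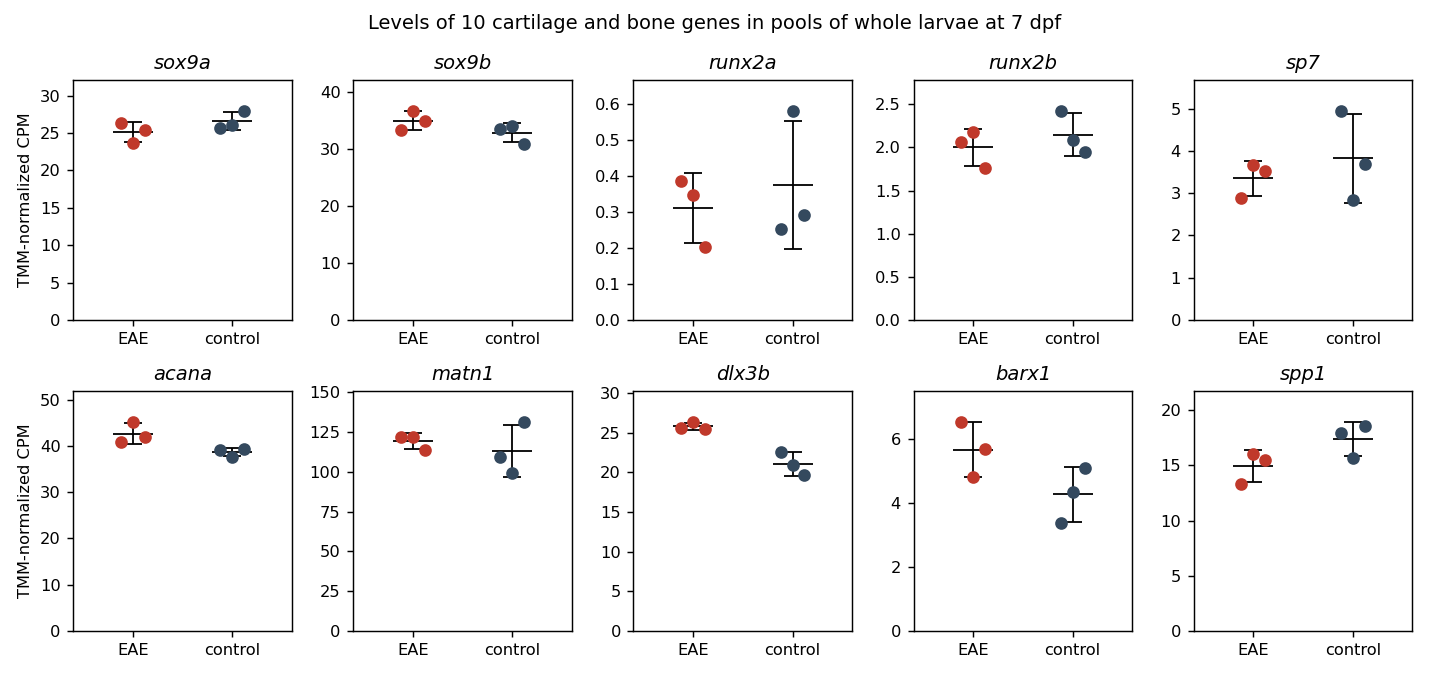
Level of each of the 10 genes, in counts per 1000000 counts (CPM, vertical axes, each panel with its own scale from 0), in the 3 EAE pools (left) and the 3 control pools (right). Points are pools and bars give the mean ± SD. The dlx3b points of EAE pools, at 25.5 to 26.3 CPM, all lie above those of control pools, at 19.7 to 22.6 CPM, and the acana groups are also apart, whereas the groups of the other 8 genes overlap.

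Levels are given below in CPM, the counts on a gene per 1000000 counts of the library after TMM scaling, which corrects totals for differences in composition. They compare pools for the same gene and not different genes, since gene lengths were not used. Library totals were 19921809 to 23638705 counts in EAE pools and 17264955 to 20724876 in control pools. The differences between pools of the same group exceeded counting noise throughout, with a chi-square per degree of freedom of 3.44 to 4.87, so each pool was kept as a separate sample. For single genes of this set the spread between pools ran from below counting noise to several times it. The EAE pools of dlx3b had a coefficient of variation of 1.72%, less than the 4.28% that counting noise alone gives at their counts, while the control pools had 6.96% beside 4.97%. The largest excess was in matn1, with 14.4% in control pools beside 2.13% from counting.

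The sox9 copies did not differ between the groups beyond the spread of the pools. The level of sox9a, the copy needed for shaping the arch cartilages, was 26.3, 23.7 and 25.4 CPM in EAE pools, against 25.7, 26.1 and 27.9 CPM in control pools. EAE pool 2 was the lowest of the 6 and control pool 3 the highest, and the groups overlapped. The log2 fold change was -0.08 (SE 0.07, edgeR adjusted p = 0.46), with a 95% interval of the fold change from 0.856 to 1.04. The level of sox9b, the copy with a broad role in neural crest, was 33.4, 36.6 and 34.9 CPM in EAE pools, against 33.6, 34.1 and 30.9 CPM in control pools. Here EAE pool 2 was the highest and control pool 3 the lowest, and the groups again overlapped. The log2 fold change was 0.09 (SE 0.06, edgeR adjusted p = 0.37), with an interval from 0.971 to 1.17.

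In EAE pool 2 and control pool 3, the pools that lay farthest from the mean, sox9a and sox9b deviated in opposite directions, as the plot of levels relative to the mean shows. When the counts of both copies were added before the fit, the log2 fold change of the sum was 0.02 (SE 0.05, edgeR adjusted p = 0.87). The share of the pair's counts that fell on sox9b was 55.9%, 60.8% and 57.9% in EAE pools, against 56.6%, 56.6% and 52.5% in control pools. The mean share was 58.2% ± 2.42 in EAE and 55.3% ± 2.38 in control pools (SD, n = 3 each, exact two-sided permutation p = 0.3, where the smallest p that 3 against 3 allows is 0.1). How the counting divided reads that match both copies is not given in the sources used here.

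Of the cartilage matrix genes, neither acana nor matn1 passed the test. The level of acana, which encodes the cartilage proteoglycan aggrecan, was 40.9, 45.1 and 41.9 CPM in EAE pools, against 39.1, 37.7 and 39.3 CPM in control pools. Every EAE pool lay above every control pool. The log2 fold change was 0.14 (SE 0.06, edgeR adjusted p = 0.12), with a 95% interval of the fold from 1.01 to 1.20. In RefSeq's GRCz12tu annotation, a later build than the one behind these counts, the acana model spans 11 other coding genes of the table, so the count of acana is uncertain to the extent that the older annotation was alike.

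The level of matn1, which encodes matrilin 1, an adaptor protein that links collagen and proteoglycan in cartilage, was 122, 122 and 114 CPM in EAE pools, against 109, 99.5 and 131 CPM in control pools. The control pools spanned the whole range of the EAE pools, and control pools 2 and 3 were the lowest and the highest of the 6. The log2 fold change was 0.07 (SE 0.07, edgeR adjusted p = 0.56), with an interval of the fold from 0.945 to 1.17. It was 0.20 (adjusted p = 0.055) without control pool 3 and -0.01 without control pool 2, so its direction depended on single control pools.

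Of the bone genes, none passed the test, and runx2a, runx2b and sp7 had the fewest counts of the 10. Only 41 counts in all were assigned to runx2a, 9, 7 and 4 in EAE pools and 5, 10 and 6 in control pools, and it did not pass the filter. Its level was 0.387, 0.346 and 0.201 CPM in EAE pools, against 0.252, 0.579 and 0.291 CPM in control pools, and the groups overlapped. With no filter the log2 fold change was -0.21 (SE 0.51, edgeR adjusted p = 0.85), with an interval of the fold from 0.426 to 1.76. A change of that size was thus not detectable at these counts. In RefSeq's later annotation the runx2a model overlaps the coding genes cdc5l and supt3h of the table. The count of runx2a is therefore uncertain to the extent that the older annotation was alike.

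The level of runx2b, the other runx2 copy, was 2.06, 2.18 and 1.76 CPM in EAE pools, against 2.42, 2.09 and 1.94 CPM in control pools. The groups overlapped, and the log2 fold change was -0.10 (SE 0.19, edgeR adjusted p = 0.77), with an interval of the fold from 0.707 to 1.23. Added into 1 gene, the runx2 copies had a log2 fold change of -0.12 (SE 0.18, adjusted p = 0.71). The share of their counts on runx2b was 84.2%, 86.3% and 89.7% in EAE pools, against 90.6%, 78.3% and 87.0% in control pools (exact two-sided permutation p = 0.9, n = 3 each).

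The level of sp7, which acts after Runx2 in osteoblasts, was 2.88, 3.66 and 3.52 CPM in EAE pools, against 4.94, 2.84 and 3.69 CPM in control pools. Control pool 1 was the highest and control pool 2 the lowest of the 6. The log2 fold change was -0.21 (SE 0.18, edgeR adjusted p = 0.50), with an interval of the fold from 0.663 to 1.13, and it was 0.02 (adjusted p = 0.97) without control pool 1.

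The level of spp1, which encodes osteopontin, a phosphoprotein of bone matrix that is also made outside bone in mammals, was 13.3, 16.0 and 15.5 CPM in EAE pools, against 17.9, 15.6 and 18.6 CPM in control pools. EAE pool 1 was the lowest, and control pool 2 lay below EAE pool 2, so the groups overlapped. The fold was 0.855, with an interval from 0.750 to 0.973, a log2 fold change of -0.23 (SE 0.09) and an edgeR adjusted p of 0.099. The gene next to spp1 in RefSeq, scpp8, which encodes another secretory calcium-binding phosphoprotein, had a log2 fold change of -0.33 (SE 0.24, adjusted p = 0.38).

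**Figure D2:**
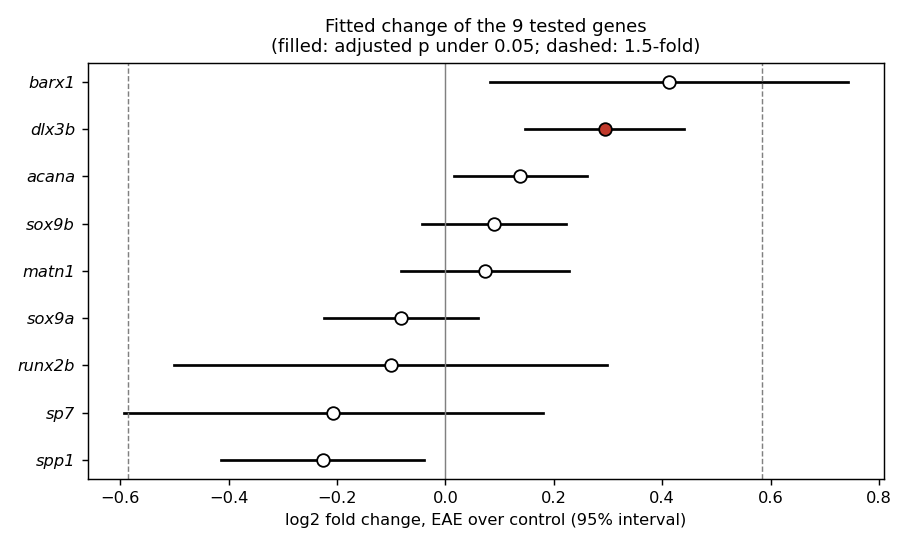
Log2 fold change of EAE over control (horizontal axis) for the 9 tested genes, with 95% intervals from the edgeR fit. The filled point has an adjusted p under 0.05 and dashed lines mark 1.5-fold in either direction. Only dlx3b, at 0.29, is filled, and the intervals of barx1 and sp7 cross a dashed line.

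Among the arch transcription factors dlx3b rose. Its product is a homeodomain protein with roles in the ventral arches, the ear placode and the fins of zebrafish. The level was 25.6, 26.3 and 25.5 CPM in EAE pools, against 22.6, 20.9 and 19.7 CPM in control pools. Every EAE pool lay above every control pool, and the EAE pools were within 1 CPM of each other. The mean was 25.8 ± 0.44 CPM in EAE and 21.1 ± 1.46 CPM in control pools (SD, n = 3 each). The log2 fold change was 0.29 (SE 0.07, edgeR adjusted p = 0.0091), and the 95% interval of the fold ran from 1.11 to 1.36, below 1.5-fold. By p-value dlx3b was number 1197 of the 21617 tested genes, and the median absolute log2 fold change of the called genes was 0.31, so its change was of the usual size for a called gene. It was also called by DESeq2 (adjusted p = 0.025) and by limma-voom (adjusted p = 0.0097). Without control pool 3, the lowest pool, the log2 fold change was 0.25 and the call was lost (edgeR adjusted p = 0.052).

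No call was made among the other dlx genes. Of the 7 that were tested, dlx1a, dlx2a, dlx2b, dlx4a, dlx4b, dlx5a and dlx6a, 0 were called by edgeR, DESeq2 or limma-voom, and 0 had an unadjusted p under 0.05 by any of these tools. Their log2 fold changes ran from -0.25 to 0.25, and 2 were positive. Their summed level was 45.4, 45.1 and 48.9 CPM in EAE pools, against 50.1, 45.8 and 47.0 CPM in control pools, which overlap. The positive values were those of dlx4b and dlx5a, and whether any of the 7 differed from dlx3b in its change was not tested. The level of dlx5a was 12.3, 13.2 and 11.9 CPM in EAE pools, against 10.8, 10.8 and 11.5 CPM in control pools, so that every EAE pool lay above every control pool (log2 fold change 0.17, SE 0.09, edgeR adjusted p = 0.19). Groups were apart, in either direction, for 32.0% of all tested genes. The partner of dlx3b in its gene cluster, dlx4b, had 2.36, 2.18 and 2.16 CPM in EAE pools, against 1.76, 2.20 and 1.70 CPM in control pools, and a log2 fold change of 0.25 (SE 0.19, edgeR adjusted p = 0.40), with an interval from -0.14 to 0.65 that holds the value of dlx3b.

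The level of barx1, a homeodomain factor that favours cartilage over joint formation in the zebrafish arches, was 6.53, 4.80 and 5.69 CPM in EAE pools, against 3.38, 4.34 and 5.10 CPM in control pools. EAE pool 2 lay below control pool 3, so the groups overlapped, while EAE pool 1 was the highest and control pool 1 the lowest. The mean was 5.67 ± 0.86 CPM in EAE and 4.27 ± 0.86 CPM in control pools (SD, n = 3 each). The fold was 1.33, the largest of the 9, with an interval from 1.06 to 1.67 and an edgeR adjusted p of 0.088. That p was under the threshold in 3 of 12 alternatives. It was 0.047 with no filter on low counts, 0.049 without EAE pool 2 and 0.046 without control pool 3. In the others it was above the threshold, and it rose to 0.35 without EAE pool 1 and to 0.35 without control pool 1. DESeq2 gave an adjusted p of 0.19.

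**Figure D3:**
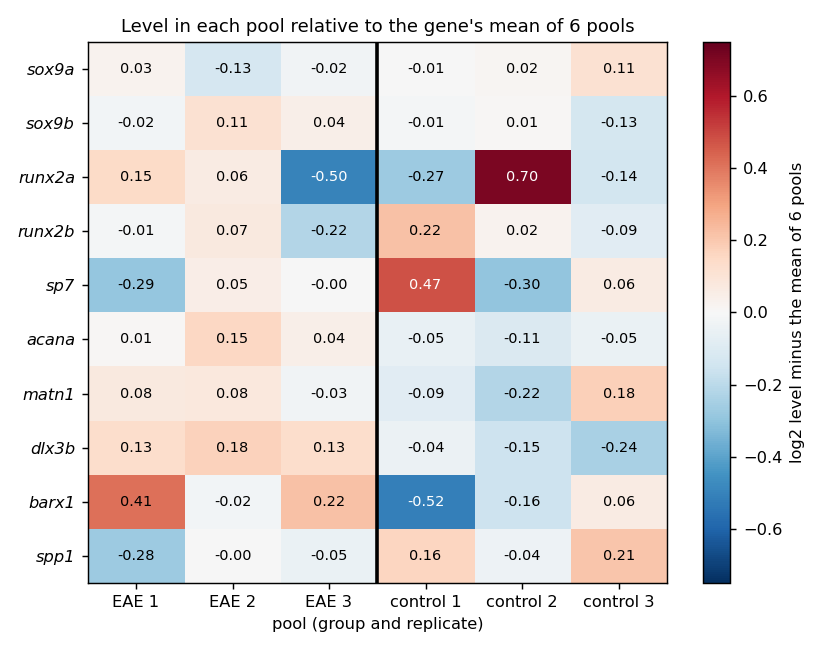
Log2 level of each of the 10 genes (rows) in each pool (columns, EAE pools left of the line and control pools right of it) minus the gene's mean over the 6 pools, computed after adding 2 counts. Red is above and blue below the mean. The dlx3b row is positive in every EAE pool, at 0.13 to 0.18, and negative in every control pool, at -0.24 to -0.04, whereas the matn1 row is lowest in control pool 2 and highest in control pool 3.

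The pools differed in ways that the groups did not explain. The summed level of 24 cartilage matrix genes was 2914, 2949 and 2547 CPM in EAE pools, against 2861, 2687 and 3238 CPM in control pools, so control pool 3 was the highest and EAE pool 3 the lowest of the 6. Collagen II, col2a1a, had 825, 860 and 718 CPM in EAE pools, against 806, 738 and 978 CPM in control pools. It followed the same order, but it is itself a large part of that sum. Control pool 3 was also the highest for matn1, spp1 and sox9a and the lowest for dlx3b and sox9b. What set these pools apart was not tested.

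Other genes of the same programs were then counted, from lists that leave the 10 genes out. Among 13 tested chondrocyte regulators, mef2ca alone was called, and it rose. It encodes a MEF2 transcription factor that acts downstream of endothelin 1 in the lower jaw, and it stood at 127, 132 and 118 CPM in EAE pools, against 114, 103 and 116 CPM in control pools. Its log2 fold change was 0.18 (SE 0.06, edgeR adjusted p = 0.045), and the call held in 2 of 6 fits that left out 1 pool. The endothelin 1 gene, edn1, a gene of the arch list below, was not called and had a negative value (log2 fold change -0.47, SE 0.17, edgeR adjusted p = 0.069). Every EAE pool lay below every control pool, at 2.26 to 3.35 CPM in EAE pools and 3.64 to 4.03 CPM in control pools. Such a separation, in either direction, was found for 32.0% of all tested genes. Whether this pathway changed was not tested. The Sox partners of Sox9 in chondrocytes were not called, with log2 fold changes of -0.09 for sox5 (adjusted p = 0.25) and 0.0049 for sox6 (adjusted p = 0.97). The median of the chondrocyte regulators was 0.05, with 8 positive and 5 negative. By edgeR 3 of the 13 were higher and 0 lower at an unadjusted p under 0.05, beside 28.8% of all tested genes in either direction. The summed level of the list, mef2ca included, was 530 to 538 CPM in EAE pools, against 503 to 515 CPM in control pools. The exact two-sided permutation p was 0.1, the smallest that 3 against 3 allows. Of the mean sums of 533 CPM in EAE and 508 CPM in control pools, mef2ca gave 126 and 111 CPM. The sum thus repeats that call in part and is no separate support for the list. By gene, the groups did not overlap for 4 of the 13 (30.8%), beside 32.0% of all tested genes.

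None of 23 tested cartilage matrix genes was called by edgeR, DESeq2 or limma-voom. At an unadjusted p under 0.05 by edgeR, 1 was higher and 1 was lower, beside 28.8% of all tested genes in either direction. Their median log2 fold change was -0.04 with a range from -0.31 to 0.37, 9 of the 23 being positive, and for 21 the 95% interval lay within 1.5-fold. The summed level of 2803 ± 223 CPM in EAE pools and 2928 ± 282 CPM in control pools (SD, n = 3 each) differed by less than the spread between pools (exact two-sided permutation p = 0.6). Of 10 genes listed as chondrocyte markers, acana and matn1 among them, 9 were in the table and all 9 were tested. The lowest was ucmaa, a secreted cartilage protein gene, at 1.71 to 2.52 CPM in EAE pools and 2.14 to 3.11 CPM in control pools. Of these markers 0 were called by edgeR, DESeq2 or limma-voom, 1 (acana) had an unadjusted p under 0.05 by edgeR, and 7 of 9 log2 fold changes were negative.

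Among 24 tested osteoblast and bone matrix genes, 1 fell and none rose. This was bglapl, an osteocalcin-like gene of the mineralizing matrix, at 1.03, 0.792 and 0.906 CPM in EAE pools, against 1.81, 1.51 and 1.51 CPM in control pools. Its log2 fold change was -0.81 (SE 0.24, edgeR adjusted p = 0.029), from 24, 16 and 18 counts in EAE pools and 36, 26 and 31 in control pools. DESeq2 gave it no adjusted p, and whichever pool was left out the call was lost, with adjusted p from 0.056 to 0.13. All 9 genes listed as osteoblast markers, sp7 and runx2b among them, were in the table, and 8 were tested. Of these 8 markers 0 were called by edgeR, DESeq2 or limma-voom, with 3 log2 fold changes positive and 5 negative. The marker left untested was the other osteocalcin gene, bglap, with 0 counts in all 6 pools. Whether the annotation behind the counts gave this 0 was not tested. The collagen I gene col1a1a did not differ beyond the spread of the pools. It stood at 1417 ± 151 CPM in EAE and 1418 ± 92.1 CPM in control pools (SD, n = 3 each, edgeR adjusted p = 0.99). How much of this level came from bone in these whole larvae was not tested. The median log2 fold change of the 24 bone genes was -0.04, with 17 negative. At an unadjusted p under 0.05 by edgeR, 1 was higher and 4 were lower, beside 28.8% of all tested genes in either direction.

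Among 38 tested genes of pharyngeal arch patterning, 2 rose and 1 fell, and the median log2 fold change was 0.07 with 27 positive. The genes that rose were mef2ca, counted above, and foxf2a, a forkhead factor of the arch mesenchyme, at 9.97 ± 0.03 CPM in EAE and 8.09 ± 0.56 CPM in control pools (SD, n = 3 each; log2 fold change 0.30, SE 0.10, edgeR adjusted p = 0.045). The gene that fell was tfap2a, an early neural crest factor, at 105 ± 1.58 CPM in EAE and 118 ± 3.83 CPM in control pools (log2 fold change -0.16, SE 0.05, edgeR adjusted p = 0.031). The foxf2a call was lost whichever pool was left out, the tfap2a call in 4 of 6 such fits, and DESeq2 called tfap2a but not the others. The SD of foxf2a in EAE pools was below what counting noise alone gives at its level, as for dlx3b. The shares called, 3 of 38 here, 1 of 24 and 0 of 23 above, and 1 of 13 chondrocyte regulators, lay below the 14.2% of all genes, a difference that was not tested.

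**Figure D4:**
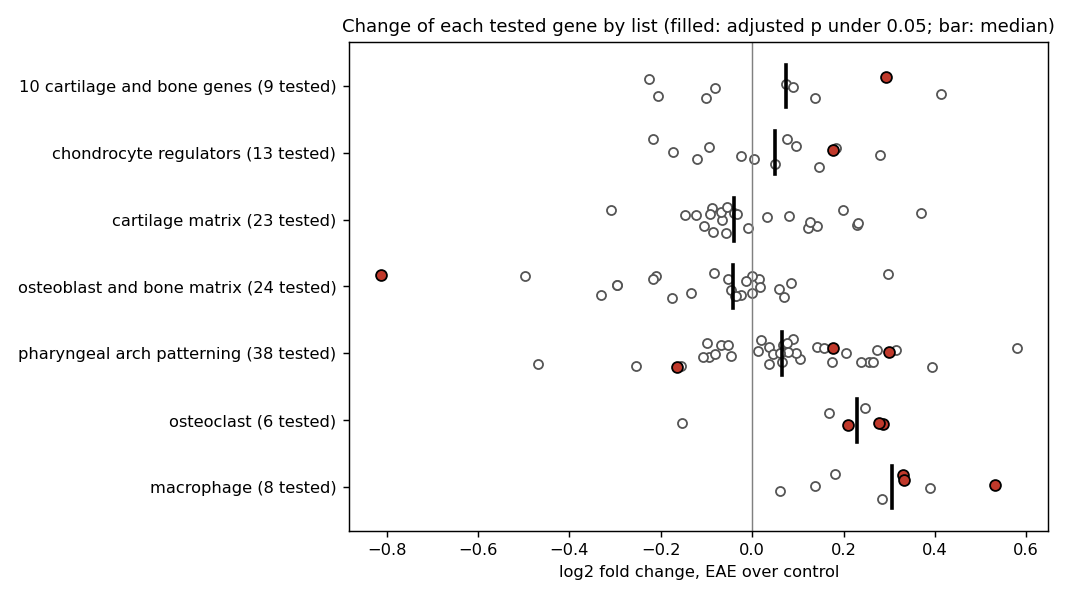
Log2 fold change of EAE over control (horizontal axis) of each tested gene, by list (rows). Points are genes, filled where the adjusted p was under 0.05, and the bar is the list's median. The cartilage matrix list has no filled point and a median of -0.04, whereas the osteoclast and macrophage medians are 0.23 and 0.31.

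Some markers of other cells were also called. Of 6 tested genes used as markers of osteoclasts, the bone-resorbing cells, edgeR called 3 higher, beside 7.22% of all genes. DESeq2 and limma-voom called 2 each. The 3 were ctsk, the collagen-degrading protease cathepsin K, with a log2 fold change of 0.29 (SE 0.05, edgeR adjusted p = 0.0019), tcirg1b, a proton pump subunit, with 0.28 (SE 0.06, adjusted p = 0.0041), and tnfrsf11a, the receptor RANK, with 0.21 (SE 0.07, adjusted p = 0.048, lost in 5 of 6 fits without 1 pool). The summed level of the 6 was 177 to 182 CPM in EAE pools, against 144 to 155 CPM in control pools. Of the mean sums of 179 CPM in EAE and 151 CPM in control pools, ctsk gave 84.5 and 69.3 CPM. The sum is therefore not separate from the calls. The gene acp5a, also on the list, was not called. The calcitonin receptor gene calcr, another osteoclast marker, had a negative value (log2 fold change -0.15, edgeR adjusted p = 0.36). Every EAE pool lay below every control pool, at 6.74 to 7.67 CPM in EAE pools and 7.71 to 8.01 CPM in control pools. Groups did not overlap, in either direction, for 32.0% of all tested genes. The fusion gene ocstamp was low, at 0.605 to 1.56 CPM over all pools, and dcstamp was missing from the count table. Whether osteoclasts were present in these pools, or other cells gave these counts, was not tested.

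Of 8 macrophage genes 3 rose (beside 7.22% of all genes) by each of the 3 tools, none fell and all 8 had positive values. The summed level of the 8 was 980 to 1063 CPM in EAE pools, against 926 to 1007 CPM in control pools. Their leading members were mpeg1.1, a perforin-like gene of macrophages, with a log2 fold change of 0.33 (SE 0.06, edgeR adjusted p = 0.0013), mfap4 with 0.53 (SE 0.11, adjusted p = 0.0041) and the scavenger receptor gene marco with 0.33 (SE 0.08, adjusted p = 0.0075). Osteopontin, the product of spp1, is also made by osteoclasts and macrophages in mammals. The part of these cells in the levels of the skeletal genes was not tested.

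Tissues outside the skeleton that use the same regulators were also examined. Sox9 genes are active in Mueller glia of the retina, in the ear and in the hepatopancreatic ducts, and Dlx3b in the ear and the skin. For reference, 7.22% of all genes were called higher and 6.95% lower, and with 5 to 9 genes a list a count of 1 or 2 says little about the tissue. Of 5 Mueller glia genes 1 fell, glula, which encodes glutamine synthetase (log2 fold change -0.25, SE 0.05, edgeR adjusted p = 0.0059). Their summed level was 537 to 586 CPM in EAE pools, against 593 to 646 CPM in control pools. By each of the 3 tools, 3 of these 5 were lower and 0 higher at an unadjusted p under 0.05, beside 28.8% of all tested genes by edgeR. Of their log2 fold changes 4 were negative and 1 was positive. What this means for the tissue was not tested. Of 9 ear genes 2 fell, otomp (log2 fold change -0.22, SE 0.06, adjusted p = 0.026) and tectb (-0.49, SE 0.14, adjusted p = 0.028), lost in 4 and 5 of 6 fits without 1 pool and neither called by DESeq2, at a summed level of 196 to 201 CPM in EAE pools and 198 to 214 CPM in control pools. Of 5 skin genes, epcam rose (0.28, SE 0.05, adjusted p = 0.0015) and krt5 fell (-0.22, SE 0.07, adjusted p = 0.030, lost in 5 of 6 fits without 1 pool), at a summed level of 7859 to 8588 CPM in EAE pools and 8597 to 9230 CPM in control pools. Of 5 duct genes 0 were called by edgeR, DESeq2 or limma-voom. At an unadjusted p under 0.05 by edgeR, 1 duct gene was higher and 1 lower, beside 28.8% of all tested genes in either direction. The median log2 fold change of the 5 skin genes was 0.07, with 3 positive and 2 negative, although their sum was lower in EAE pools. Whether the ear or the skin contributed to the level of dlx3b was not tested.

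The genes whose pattern over the 6 pools was most like that of dlx3b were sought among 20219 tested genes with a mean of at least 1 CPM, by the root mean square difference of log2 levels centred on each gene's mean. The closest was ctsk, at 0.028, followed by CU469528.1 at 0.029 and ddx47 at 0.034. The level of ctsk was 85.6, 86.9 and 81.0 CPM in EAE pools, against 73.3, 68.3 and 66.2 CPM in control pools, so that, as for dlx3b, EAE pool 2 was the highest and control pool 3 the lowest. With 6 pools and 20219 genes such likeness is a description only.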

How the data were processed

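Poly-A RNA from 6 pools of 30 larvae was sequenced. Using STAR and GRCz10, the authors turned the reads into raw counts per gene symbol, deposited without normalization, and tested them with DESeq2. The counting program, annotation release, use of strand and handling of multiply aligned reads are not given in the sources used here. The row without a gene name, 1.49% to 1.57% of each pool's counts, was left out, and 17 date-like names stayed in the fit unnamed. The labels describe siblings divided among tubes and the paper combined clutches, so p-values measure the spread between these pools, which may be partly technical.

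Counts were filtered with filterByExpr, normalized by TMM (factors 0.986 to 1.02) and tested with edgeR 4.0.16 (glmQLFTest) in R 4.3.3, without covariates. The SE is the absolute log2 fold change over the square root of F, and 95% intervals use the fit's degrees of freedom. Levels in CPM use TMM library sizes. Depth and the spread between pools both limit precision: the median SE of a log2 fold change was 0.096, and 0.06 to 0.19 for the 9 tested genes. Alternatives were DESeq2 1.42.0, limma-voom (limma 3.58.1), other scalings, no filter, a required 1.5-fold change, summed paralogs, a replicate block, and leaving out each pool. The edgeR code was tested on simulated data. RefSeq (GRCz12tu) served only for names and neighbouring genes.

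The genes and lists were chosen with earlier results of these data known. Named are all 10 genes, up to 6 called genes per list, and the 3 genes most like dlx3b. Other list genes (acp5a, calcr, dlx5a, edn1, ocstamp, bglap, ucmaa, sox5, sox6, col2a1a, col1a1a, dlx4b and scpp8) were named after their values were seen.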

Additional observations from a re-analysis of the deposited data

How the results depend on the processing

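Of all genes, 1560 were higher and 1503 lower in EAE. DESeq2 called 948 higher and 898 lower, and a required change of 1.5-fold left 289 and 142. Leaving out 1 pool gave 924 to 1497 higher and 717 to 1499 lower, with 924 and 717 without EAE pool 1, 953 and 803 without control pool 1, and 914 or 941 lower without control pool 2 or 3. Of the 10 skeletal genes, 2 were called higher with no filter on low counts, 0 with a required 1.5-fold change and 1 to 2 when a pool was left out. The dlx3b call, with a log2 fold change of 0.29, was below 1.5-fold, and over fits without 1 pool the value was 0.25 to 0.35 (edgeR adjusted p 0.011 to 0.052). Without 1 pool, barx1 ran from 0.26 to 0.57 and spp1 from -0.29 to -0.14. Directions reversed for sp7 (-0.37 to 0.02) and for matn1 (-0.011 to 0.20), neither of them called. The sum of sox9a and sox9b had a positive value (0.016), whereas sox9a itself stayed negative without 1 pool (-0.12 to -0.04). DESeq2 gave no adjusted p for runx2b or bglapl.

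Of the chondrocyte regulators, 0 were called higher by DESeq2, with a required 1.5-fold change or without genes on another list, 2 with no filter, and 0 to 1 without 1 pool. Of the bone genes, 1 was called higher under upper quartile scaling or with no filter and 0 to 1 without 1 pool, while 0 were lower by DESeq2 or without any 1 pool. Of the arch genes, 0 were higher by DESeq2 or with a required 1.5-fold change, 1 without genes on another list and 0 to 1 without 1 pool, while 0 were lower with a required 1.5-fold change and 0 to 1 without 1 pool. These lists rest on 1 to 3 calls each, so single pools decide them. The cause of these shifts was not tested.

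Replicate numbers were used in the main fit only to name the pools, and whether they mark pairs is open. Deviations of same-numbered pools correlated at -0.009, -0.034 and -0.093, and 0 of 3 EAE pools correlated best with their own number. With 3 pools per group such values cannot exclude pairing. With the replicate block 1216 genes were higher and 1120 lower, dlx3b stayed called (edgeR adjusted p = 0.020), and 0 chondrocyte regulators were higher and 0 arch genes higher or lower. Low counts limit runx2a and runx2b, whose spread was near counting noise. The interval of sp7 also holds the spread of its control pools, with a coefficient of variation of 27.7% beside 11.6% from counting.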
